A study of Homo sapiens with 6 samples.

Results

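The genes described here encode the subunits of the 5 oxidative phosphorylation complexes, and they were chosen by name alone. Of 61228 genes in the count table, 94 carried such a name, and of these 81 are nuclear genes and 13 are the protein-coding genes of mitochondrial DNA (mtDNA). The cells were HBECs, a wild-type line of immortalized bronchial epithelium of human origin, and RNA-seq was performed on 2 groups of 3 libraries. The CRE group received cockroach extract alone for 24 h. The CRE+VAF347 group received the same extract for 24 h after a pre-treatment with VAF347, an agonist of the aryl hydrocarbon receptor (AhR), at 20 μM. Both groups carried the extract, so the comparison shows the effect of the agonist on top of the allergen and holds no untreated cells. The labels number the libraries of each group 1 to 3 and do not say that they came from separate cultures, so p-values measure the spread between these libraries, which may be technical.

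Oxidative phosphorylation is carried out in the inner mitochondrial membrane. Complexes I and II pass electrons from NADH and succinate to ubiquinone, complex III passes them on to cytochrome c, complex IV gives them to oxygen, and complex V, the ATP synthase, uses the proton gradient so built to make ATP. Complex II is built from nuclear genes alone, whereas each of the other complexes also needs subunits translated inside the mitochondrion from mtDNA, so that both genomes supply its parts. Complexes I and III are also known sources of reactive oxygen species. The study describes measuring these in mouse lung sections, and its discussion also states that VAF347 lowered them in HBECs given the extract.

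Some mtDNA genes share not only a transcript but also bases, and these are printed because they limit how reads could be assigned. *MT-ATP8* and *MT-ATP6*, both subunits of complex V, lie on 1 mRNA and overlap by 46 bases (hg38, chrM:8527-8572, plus strand). *MT-ND4L* and *MT-ND4*, both subunits of complex I, lie on another and overlap by 7 bases (chrM:10760-10766, plus strand). In the lines that follow, capitals mark the coding bases that both genes of a pair hold, with 30 bases on either side.
MT-ATP8/MT-ATP6: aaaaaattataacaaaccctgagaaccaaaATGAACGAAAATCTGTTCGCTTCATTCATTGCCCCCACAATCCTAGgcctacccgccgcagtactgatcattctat
MT-ND4L/MT-ND4: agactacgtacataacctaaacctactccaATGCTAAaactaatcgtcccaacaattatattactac

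The libraries held 8873160 to 10750283 estimated counts. The AhR targets followed the labels: *CYP1A1*, which encodes a xenobiotic-metabolizing cytochrome P450, rose by 6.20 on the log2 scale (SE 0.17, adjusted p = 2.83e-09, edgeR) and 4 of 4 such genes rose. The epithelial markers *EPCAM*, *CDH1*, *KRT8*, *KRT18* and *KRT19* were well expressed, while *TP63* and *KRT14* held at most 2 counts in any library and the secretory markers *SCGB1A1* and *MUC5AC* held 0, which allows up to 3 counts in a library. Of the 9 epithelial markers 7 were tested, and 2 keratins fell with VAF347, *KRT19* (log2 fold change -0.38, adjusted p = 0.0265) and *KRT17* (-0.27, adjusted p = 0.024), joined by *KRT5* (-0.43, adjusted p = 0.031) without CRE replicate 3. The leukocyte markers *PTPRC* and *CD3E* held at most 2 counts, while *CD68*, which macrophages express most, held 149 to 283 counts and had a log2 fold change of -0.43 (adjusted p = 0.0912). Of the 3 endothelial markers, *PECAM1* held at most 3 counts, while *VWF* (10 to 39 counts) and *CDH5* (87 to 188 counts) fell with VAF347, and their sum was 7.31 to 7.92 TPM in CRE and 3.95 to 4.67 TPM with VAF347. The part of these markers in the results was not tested. CRE replicate 3 stood apart from the other libraries. The mean chi-square per gene between libraries of 1 group was 2.49 for CRE replicates 1 and 2, but 9.25 and 8.95 for the pairs that include CRE replicate 3, and 1.79 to 2.58 in the CRE+VAF347 group. Values without that library are therefore given beside those of all 6.

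VAF347 was accompanied by no change in an oxidative phosphorylation gene that passed the test when all 6 libraries were used. Of the 94 members, 91 passed the filter on low counts (78 nuclear and 13 mtDNA genes), and 0 of 91 had an adjusted p under 0.05 in edgeR's quasi-likelihood test, against 5.42% of the 15373 genes tested. At an unadjusted p under 0.05 the count was 6 of 91 (6.59%), compared with 20.8% of all genes. These were *NDUFA4*, *NDUFB6*, *NDUFV3*, *COX6C* and *ATP5MJ*, which were higher, and *COX6B2*, which was lower. DESeq2's Wald test called 1 of the 90 members to which it gave an adjusted p, *NDUFA4*, against 4.5% of all genes. The test of limma on log2(TPM + 1) called 0 of 91 members and 0.545% of all genes. When genes with low counts were kept, edgeR called 21 of 91 members, all higher and 5 of them mtDNA genes, against 5.56% of all genes. With an offset for the trend in transcript length it called 2, *NDUFA4* and *COX6C*, against 9.02%. Log2 fold changes of CRE+VAF347 over CRE ran from -0.69 to 0.46, and the median was 0.14 for nuclear members, 0.08 for mtDNA members and 0.01 for all genes. The 95% interval lay wholly within 0.5 of zero on the log2 scale for 58 of 91 members (63.7%), against 65.1% of all genes. In bulk RNA a change in the number of cells and a change in RNA per cell cannot be told apart.

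Most of the spread among the members came with CRE replicate 3. That library was the lowest of the 6 for 79 of 91 members (86.8%), compared with 24.1% of all genes. Against the mean of CRE replicates 1 and 2, the median member differed there by -0.56 on the log2 scale of CPM (counts scaled to an equal library size), whereas the median of all genes was 0.01. The SD over the 3 CRE libraries had a median of 0.33 among members (log2 CPM), but 0.05 over CRE replicates 1 and 2 and 0.08 over the CRE+VAF347 libraries. Without CRE replicate 3, the median fold change of nuclear members moved from 0.14 to -0.01. The number of members above 0 fell from 78 to 47 of 91, while the share of all genes above 0 went from 52.1% to 50.9%. The interval then lay within 0.5 of zero for 90 of 91 members, *COX6B2* being the exception, against 66.2% of all genes. In neither fit were all genes matched to the members in counts, on which the width of an interval depends.

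**Figure D1:**
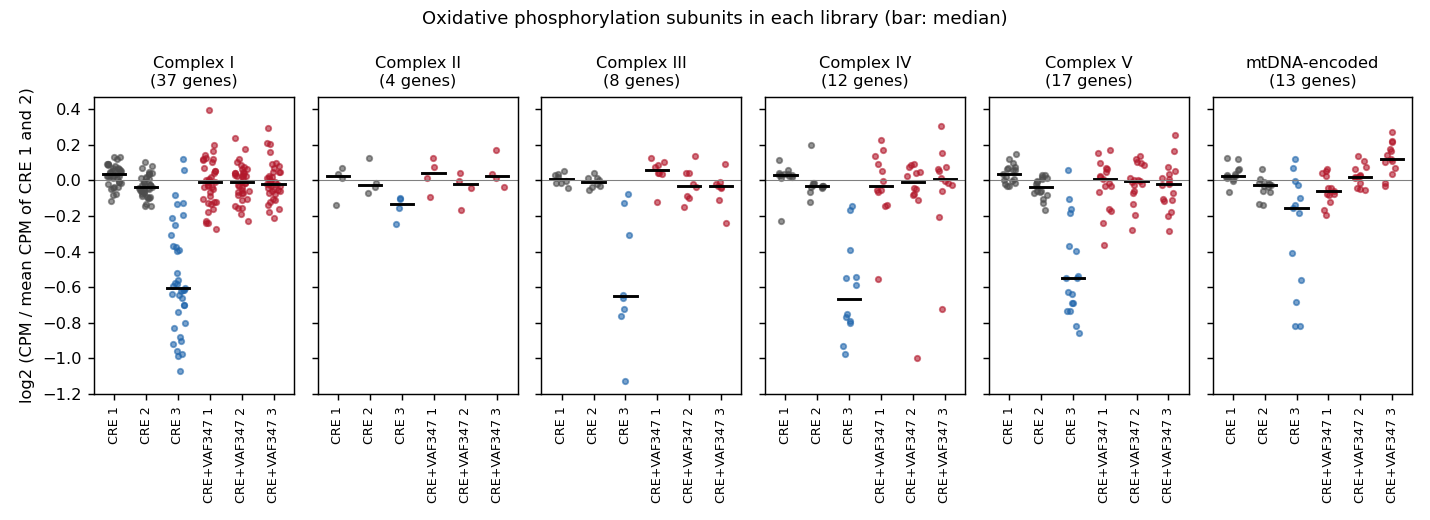
Each point is 1 tested subunit in 1 library, plotted as log2 of its CPM over the mean CPM of CRE replicates 1 and 2, by complex, and black bars are medians. Complexes follow the gene names, so NDUFA4 is placed with complex I. CRE replicate 3 (blue) lies below the other libraries in complexes I, III, IV and V, with medians of -0.60, -0.65 and -0.67 in complexes I, III and IV, whereas the 3 CRE+VAF347 libraries (red) lie around CRE replicates 1 and 2 (grey).

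The lower values in CRE replicate 3 went with transcript length, in the members as in other genes. Members with a canonical transcript of up to 600 nt had a median difference of -0.75 (24 genes, log2 CPM), and the 168 genes of that length one of -0.63. Above 600 and up to 1000 nt the medians were -0.55 for 29 members and -0.35 for 526 genes, and above that up to 2000 nt they were -0.17 for 20 members and -0.11 for 1992 genes. Above 2000 nt, 17 members had a median of -0.30, while 8477 genes had one of 0.06. These classes leave out *COX6B2*, which was below their minimum of log2 CPM 3. Across the 91 members Spearman's rho between this difference and length was 0.63, and with GC content it was -0.15. With the effective length, as implied by the deposited counts and TPM, it was 0.68. The 17 members above 2000 nt had effective lengths of 0.16 (*NDUFC2*) to 1.36 (*NDUFV3*) times that of the median gene tested. Canonical length therefore did not always follow that of the transcripts counted. The points share 1 library, so these are descriptions. The effective lengths that the deposited counts and TPM imply were here centred on the median gene of each library. A shift common to all genes therefore cannot show. Over the nuclear members these lengths had a median difference of -0.01 on the log2 scale for CRE replicate 3, with a range of -0.31 to 0.25. For 9 of the 13 mtDNA members they were longer there by 0.18 to 0.31. On the scale of log2(TPM + 1) the median difference was -0.39 for nuclear members, -0.19 for mtDNA members and 0.18 for all genes. In log2 CPM these medians were -0.59, -0.16 and 0.01. The median of all genes itself was higher in TPM. Against it the nuclear members stood about as low in both measures, and the mtDNA members stood lower in TPM. Whether RNA quality or library preparation had a part in this was not tested.

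**Figure D2:**
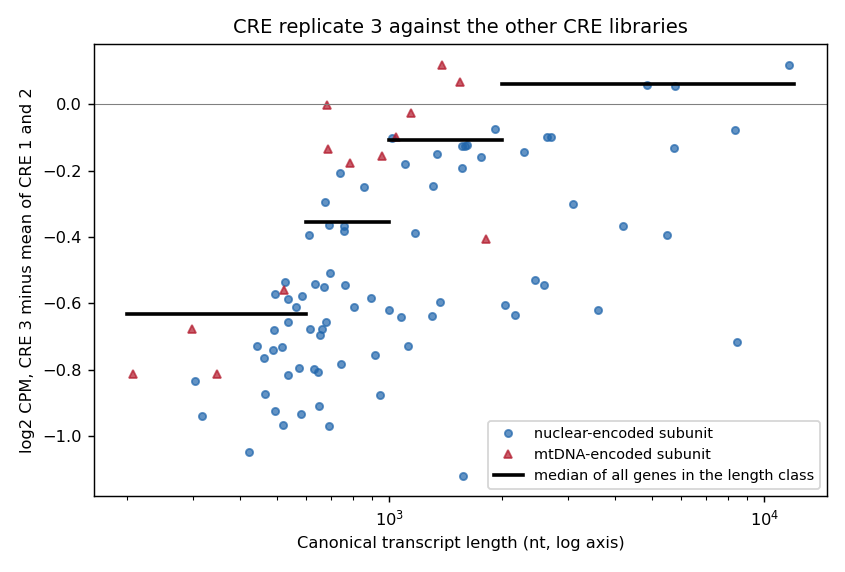
The vertical axis is log2 CPM in CRE replicate 3 minus the mean of CRE replicates 1 and 2, and the horizontal log axis is canonical transcript length in nucleotides. Points are the 91 tested subunits and black lines the medians of all genes in 4 length classes, which run from -0.63 at up to 600 nt to 0.06 above 2000 nt.

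Complex I oxidizes NADH. The median fold change of the 37 nuclear members named NDUF was 0.14 on the log2 scale with all libraries and -0.01 without CRE replicate 3. The highest value belonged to *NDUFA4*, which was first assigned to complex I and is now known as a subunit of complex IV. CRE replicates 1 to 3 had 53.5, 47.2 and 32.9 CPM, and replicates 1 to 3 with VAF347 had 66.2, 59.3 and 58.1 CPM. The groups did not overlap, and every CRE+VAF347 library was above every CRE library, also when CRE replicate 3 is left out. The log2 fold change was 0.46 (SE 0.14, adjusted p = 0.0845). Without CRE replicate 3 it was 0.28 (SE 0.08) and passed the test (adjusted p = 0.0359), the 1 call among 91 members in that fit, in which 8.26% of all genes were called. Over 21 alternative settings its log2 fold change stayed between 0.26 and 0.61, its adjusted p ran from 5.83e-06 to 0.431, and 6 settings called it.

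*NDUFV3*, an accessory subunit of the NADH-oxidizing module, had CPM of 51.0, 53.8 and 47.8 in CRE and 60.2, 53.9 and 64.2 in CRE+VAF347. Its groups did not overlap, although CRE replicate 2 and CRE+VAF347 replicate 2 were nearly level, and its log2 fold change was 0.23 (SE 0.08, adjusted p = 0.139), or 0.18 without CRE replicate 3. In TPM the groups overlapped, at 26.1, 28.0 and 32.0 against 35.1, 23.4 and 29.4. *NDUFB2*, an accessory subunit of the membrane arm and the most abundant nuclear member of complex I per length (580 TPM over all libraries), showed the typical pattern. It was at 99.2 and 105.1 CPM in CRE replicates 1 and 2, at 55.5 in CRE replicate 3, and at 98.2 to 101.0 with VAF347. CRE replicate 1 lay inside the CRE+VAF347 range and CRE replicate 2 above it, and the log2 fold change went from 0.20 to -0.04 without replicate 3.

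Complex II, succinate dehydrogenase, also serves the tricarboxylic acid cycle, and CRE replicate 3 was less far from the other libraries in its 4 genes than in the other nuclear members. *SDHA*, the flavoprotein subunit, was at 288.1, 282.8 and 266.7 CPM in CRE and at 267.6, 285.2 and 288.2 with VAF347. The groups covered nearly the same range, with a log2 fold change of 0.01 (SE 0.06, 95% interval -0.13 to 0.14). *SDHB*, the iron-sulfur subunit, had a log2 fold change of -0.03 (interval -0.19 to 0.13), and *SDHC*, a membrane anchor, one of 0.10 (interval -0.07 to 0.27). Without CRE replicate 3 the values of *SDHA*, *SDHB*, *SDHC* and *SDHD* were -0.03, -0.06, 0.02 and 0.11. *SDHD*, the other anchor, had the highest value at 0.16 (SE 0.08, adjusted p = 0.274), with 87.5, 104.9 and 86.4 CPM in CRE and 105.1, 99.0 and 108.3 with VAF347. The median difference of CRE replicate 3 in this complex was -0.13, compared with -0.59 over all nuclear members.

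Complex III passes electrons to cytochrome c, and its 8 members had a median log2 fold change of 0.17 that became 0.01 without CRE replicate 3. *UQCRQ*, a small subunit known as a ubiquinone-binding protein, had the highest value and also the largest drop of any member in CRE replicate 3. It was at 181.7 and 176.9 CPM in CRE replicates 1 and 2, at 82.3 in CRE replicate 3, and at 183.9, 184.2 and 178.2 with VAF347. CRE replicate 1 lay inside the CRE+VAF347 range and CRE replicate 2 just under it, and the log2 fold change of 0.31 (SE 0.22, adjusted p = 0.452) became 0.02 without replicate 3. *UQCRC1*, a core subunit, had the lowest value, -0.04 (SE 0.06, adjusted p = 0.725), or -0.09 without CRE replicate 3. *UQCRH*, the hinge subunit that helps cytochrome c dock, was the most abundant nuclear member of the complex at 608 TPM and had a log2 fold change of 0.24 (adjusted p = 0.354), or 0.05 without CRE replicate 3.

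Complex IV, cytochrome c oxidase, holds several subunits with tissue-specific isoforms, and HBECs expressed the ubiquitous ones. *COX4I2*, the lung isoform, and *COX6A2* and *COX7A1*, the heart and muscle isoforms, were the 3 members with 0 counts in all 6 libraries, which allows up to 3 counts in each. Their partners were abundant per length, with *COX4I1* at 572 TPM, *COX6A1* at 1057 TPM and *COX7A2* at 947 TPM. *COX7A2L*, a related protein that acts in supercomplex assembly, was at 65.7 TPM. *COX6B1* was at 480 TPM, against 1.85 TPM for its testis isoform *COX6B2*.

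Among the members named COX the highest fold change was that of *COX6C*, a small membrane subunit of complex IV. Its CPM were 118.9, 113.0 and 67.2 in CRE and 135.6, 123.2 and 143.0 with VAF347. The groups did not overlap, with or without CRE replicate 3, and the log2 fold change was 0.43 (SE 0.16, adjusted p = 0.164), or 0.21 (SE 0.06, adjusted p = 0.0523) without it. *COX7C*, the most abundant nuclear member of the complex at 1173 TPM, also did not overlap, at 215.2, 206.5 and 120.9 CPM in CRE and 216.6 to 224.5 with VAF347. Its log2 fold change of 0.29 (adjusted p = 0.35) fell to 0.06 without CRE replicate 3, and that of *COX7A2* went from 0.31 to 0.09. *COX4I1*, *COX6A1*, *COX6B1* and *COX7A2L* had values of 0.09, 0.25, 0.14 and 0.10, with adjusted p from 0.304 to 0.719. These were -0.07, 0.08, -0.07 and 0.06 without CRE replicate 3, so the signs of *COX4I1* and *COX6B1* turned.

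*COX6B2* was the lowest of all members. It was at 1.97, 2.65 and 2.06 CPM in CRE and at 1.57, 1.16 and 1.40 with VAF347, that is at 11 to 27 counts in a library. The groups did not overlap, with VAF347 the lower one. Its fold change was -0.69 on the log2 scale (SE 0.27, 95% interval -1.29 to -0.10, adjusted p = 0.175), and -0.75 (adjusted p = 0.206) without CRE replicate 3. None of the 21 alternative settings called it, DESeq2 giving it no adjusted p and the others adjusted p from 0.129 to 0.551.

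Complex V makes ATP, and its 17 nuclear members had a median log2 fold change of 0.12, or -0.01 without CRE replicate 3. *ATP5MJ*, a small subunit of the membrane part, had the highest value. It was at 71.1, 65.4 and 42.4 CPM in CRE and at 76.0, 73.3 and 81.5 with VAF347, and the groups did not overlap with or without CRE replicate 3. The log2 fold change was 0.37 (SE 0.15, adjusted p = 0.18), and 0.17 (adjusted p = 0.127) without it. *ATP5F1A*, the alpha subunit of the catalytic head, had the lowest value of the complex and no drop in CRE replicate 3, at 276.0 to 291.1 CPM in CRE and 276.2 to 283.6 with VAF347 (log2 fold change -0.02, 95% interval -0.14 to 0.11).

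The 3 genes *ATP5MC1*, *ATP5MC2* and *ATP5MC3* encode the same mature c-ring protein with different import sequences. Their mean levels over all libraries were 231, 407 and 290 TPM, and their log2 fold changes were 0.05, 0.08 and 0.18 (adjusted p 0.907, 0.758 and 0.439). They were -0.18, -0.08 and 0.02 without CRE replicate 3. *ATP5MC1* was at 54.9, 49.7 and 29.6 CPM in CRE and at 46.9, 43.1 and 48.4 with VAF347, so that without CRE replicate 3 its groups no longer overlapped (adjusted p = 0.164). *ATP5MF*, a membrane subunit and the most abundant nuclear member of complex V at 1255 TPM, had a log2 fold change of 0.10 (adjusted p = 0.77), or -0.10 without CRE replicate 3. It shares its locus and strand with the readthrough gene *ATP5MF-PTCD1*, so its counts may include reads of that gene.

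With all 6 libraries the groups did not overlap in 6 members that were higher with VAF347 (6.59%, against 12.5% of all genes), *NDUFA4*, *NDUFV3*, *COX6C*, *COX7A2*, *COX7C* and *ATP5MJ*. They did not overlap in 1 member that was lower (1.10%, against 14.8% of all genes), *COX6B2*. Both shares lay below those of all genes. CRE replicate 3 was the lowest of the 6 libraries for 79 of 91 members, against 24.1% of all genes. In those members VAF347 could not lie wholly below CRE, so that library limited the lower share. In TPM 6 of these 7 members also had groups that did not overlap, *NDUFV3* being the exception. Without CRE replicate 3 the counts among the 91 members were 6 higher (the same genes, against 19.2% of all genes) and 11 lower (against 19.9%). Among the latter *NDUFA13*, a subunit of complex I, was at -0.20 (adjusted p = 0.0511).

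**Figure D3:**
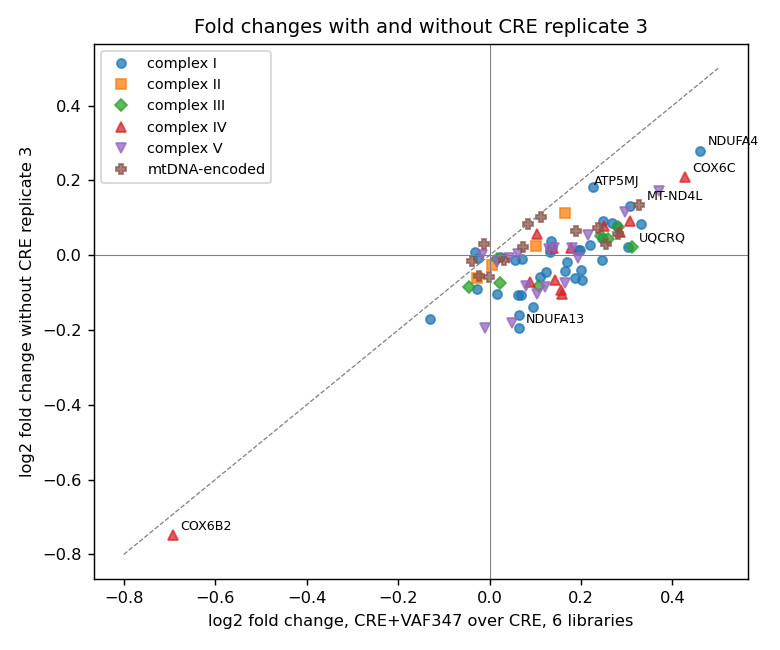
Log2 fold change of CRE+VAF347 over CRE for the 91 tested subunits, with all 6 libraries on the horizontal axis and without CRE replicate 3 on the vertical axis. Marks give the complex by gene name, so NDUFA4 is marked as complex I. Most points lie below the dashed line of equal values, and 78 of 91 are right of zero but 47 of 91 are above it.

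The 13 mtDNA genes are transcribed together from both strands and then cut apart, and 0 of them passed the test with the filter on low counts. At an unadjusted p under 0.05 the count was also 0 in edgeR, and DESeq2 called 0 of them. *MT-CO1*, the catalytic subunit of complex IV, was the most counted at 7522, 7451 and 7847 CPM in CRE and 7094, 7277 and 7846 with VAF347. The ranges overlapped over most of their length, and the log2 fold change was -0.04 (SE 0.06, 95% interval -0.17 to 0.10), the lowest of the 13. The other mtDNA subunits of complex IV were alike, with *MT-CO2* at 0.03 (interval -0.11 to 0.18) and *MT-CO3* at a difference that rounds to zero (interval -0.19 to 0.19). Without CRE replicate 3 *MT-CO1*, *MT-CO2* and *MT-CO3* were at -0.02, -0.01 and -0.06. *MT-CYB*, the mtDNA subunit of complex III, was at 1702, 1652 and 1647 CPM in CRE and at 1751, 1699 and 1956 with VAF347. Its groups overlapped only through CRE replicate 1 and CRE+VAF347 replicate 2, at a log2 fold change of 0.11 (SE 0.07, adjusted p = 0.369), or 0.10 without CRE replicate 3.

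Among the mtDNA subunits of complex I, the short genes had the higher values. *MT-ND4L*, of 297 nt, was at 414.4, 348.3 and 237.3 CPM in CRE and at 392.2, 402.3 and 459.5 with VAF347, and its log2 fold change was 0.33 (SE 0.16, adjusted p = 0.257). CRE replicate 1 lay inside the CRE+VAF347 range, and the value was 0.13 without CRE replicate 3. *MT-ND3*, of 346 nt, went from 0.28 to 0.06 when that library was left out, and *MT-ND6* from 0.24 to 0.07. *MT-ND6* is the only mRNA of the other mtDNA strand and is known to lack a poly(A) tail, yet it was detected in these poly(A)-selected libraries, with group means of 726 ± 108 and 848 ± 50.1 TPM (SD, n = 3). Whether strand was used in counting is not given in the sources used here, and without it reads of the opposite strand cannot be told apart from *MT-ND6*. *MT-ND5*, the longest at 1812 nt, was at 1300, 1418 and 1025 CPM in CRE and at 1305, 1423 and 1537 with VAF347 (log2 fold change 0.19, adjusted p = 0.348), and without CRE replicate 3 its value was 0.06. *MT-ND1*, *MT-ND2* and *MT-ND4* had values of 0.07, -0.02 and -0.01, with intervals within 0.5 of zero, and of 0.02, -0.06 and 0.03 without CRE replicate 3.

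Genes of 1 mRNA differed in CRE replicate 3. On the shared complex V transcript printed at the start, *MT-ATP8* was at 213.2, 209.5 and 120.1 CPM in CRE and at 184.5, 216.1 and 245.6 with VAF347, whereas *MT-ATP6* was at 861.2, 818.6 and 838.4 and at 869.8, 855.8 and 943.2. Only the short gene was low in CRE replicate 3. The ratio of *MT-ATP8* to *MT-ATP6* in TPM was 1.68 in CRE replicate 3 and 1.93 to 2.25 in the other 5 libraries, and that of *MT-ND4L* to *MT-ND4* was 1.84 there and 2.24 to 2.61 elsewhere. The log2 fold changes were 0.25 (adjusted p = 0.46) for *MT-ATP8* and 0.08 (adjusted p = 0.479) for *MT-ATP6*, and 0.03 and 0.08 without CRE replicate 3.

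**Figure D4:**
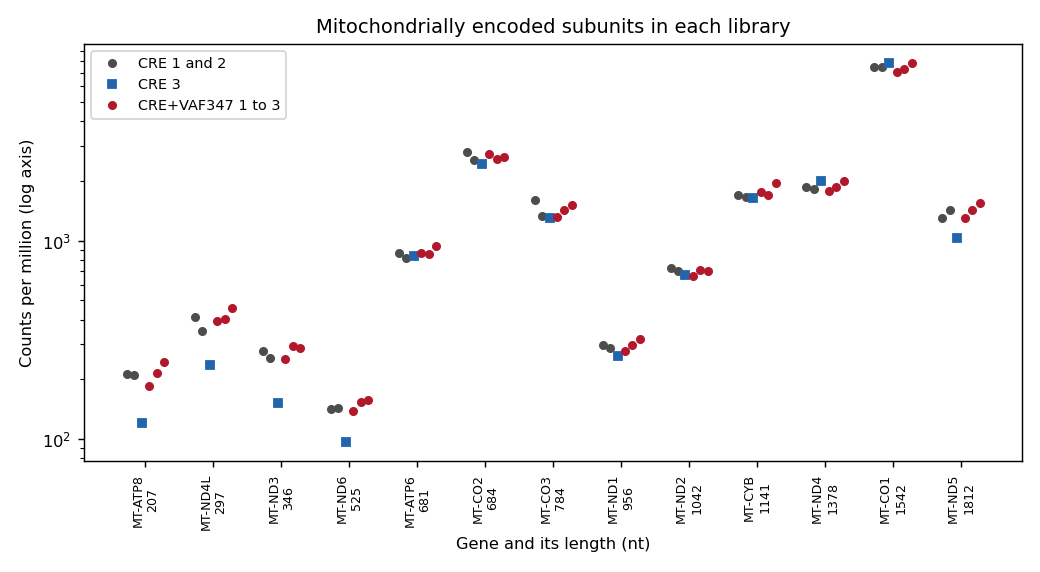
CPM of the 13 mtDNA-encoded subunits in each library on a log axis, ordered by gene length. CRE replicate 3 (blue squares) is the lowest library in 9 of 13 genes, with the widest gaps in the 4 genes of up to 525 nt and in MT-ND5, while the groups overlap in all 13 genes.

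The part of all counts that the subunits took was close in both groups. All members held 2.64% ± 0.17 of counts in CRE (SD, n = 3) and 2.81% ± 0.11 in CRE+VAF347. The mtDNA members held 1.94%, 1.88% and 1.85% with CRE alone and 1.88%, 1.93% and 2.08% with VAF347, so the groups overlapped (means 1.89% ± 0.05 and 1.96% ± 0.11). The nuclear members held 0.84%, 0.81% and 0.61% in CRE and 0.84%, 0.84% and 0.85% with VAF347. CRE replicate 3 was the low one here too, and the mean of CRE replicates 1 and 2 was 0.83%. Counted per length, the nuclear members summed to 26170, 25720 and 19780 TPM in CRE and 26540, 26320 and 26790 TPM with VAF347, and the mtDNA members to 48800 to 56760 and 55550 to 62320 TPM. The 37 nuclear genes named NDUF, *NDUFA4* included, summed to 8946, 8725 and 6628 TPM in CRE and 8963, 8877 and 9041 TPM with VAF347. The 15 named COX summed to 7190, 7036 and 4964 TPM and to 7509, 7315 and 7541 TPM. The 17 of complex V summed to 6955, 6915 and 5657 TPM and to 6842, 6961 and 6987 TPM. CRE replicate 3 was the lowest library in each of these and in complex III. Complex II was the exception, at 781, 807 and 831 TPM in CRE and 835, 785 and 850 TPM with VAF347, where CRE replicate 3 was the highest of its group. In percent of counts that direction turned, and complex II was lowest in CRE replicate 3, at 0.0519% against 0.0566% to 0.0597% elsewhere. The 13 mtDNA genes took more of the per-length total than the 81 nuclear genes in every library.

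Genes that build or regulate these complexes were counted in lists. The 6-library fit called 5.42% of all genes, and the fit without CRE replicate 3 called 8.26%. Of 53 assembly factors 0 passed the test in edgeR, and without CRE replicate 3 only *COX17*, a copper chaperone for complex IV, rose (log2 fold change 0.32, adjusted p = 0.0196). Of 24 genes of mtDNA transcription and RNA handling 0 passed, and without that library *POLRMT*, the mitochondrial RNA polymerase, fell (-0.30, adjusted p = 0.0282). The 78 tested genes of the mitochondrial ribosome gave 0 calls, and 3 lower ones without CRE replicate 3 (*MRPL11*, *MRPS18B* and *MRPS34*, at -0.21, -0.19 and -0.24). The 17 tricarboxylic acid cycle genes gave 0 calls, with *IDH3A* higher (0.24, adjusted p = 0.043) without CRE replicate 3, and the 8 tested carriers gave 0 in both fits. The rRNA genes *MT-RNR1* and *MT-RNR2*, the only 2 tested of 24 mtDNA RNA genes outside the rule, had values of 0.17 and 0.08 and did not pass. At an unadjusted p under 0.05 in edgeR these lists held, in the order given, 8, 4, 5, 3, 0 and 0 genes, against 20.8% of all genes. DESeq2 called 1 assembly factor and 0 genes of the other lists, against 4.5% of all genes. When genes with low counts were kept, edgeR called 5 assembly factors, 4 mitochondrial ribosome genes and 1 tricarboxylic acid cycle gene. That setting called 5.56% of all genes.

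Among 10 tested regulators of respiratory genes 2 fell, where the fit called 5.42% of all genes in either direction. *MYC*, a transcription factor that also acts on mitochondrial genes, was at 594, 605 and 706 counts in CRE and at 341, 291 and 290 with VAF347, without overlap (log2 fold change -0.94, SE 0.10, adjusted p = 0.000432). *PPRC1*, a coactivator related to PGC-1alpha, was at 331, 362 and 480 counts and at 264, 256 and 280, also without overlap (-0.44, SE 0.11, adjusted p = 0.0355). Both passed without CRE replicate 3, at -0.89 and -0.31, in a fit that called 8.26% of all genes. Of the subunits and related genes that the name rule leaves out, 7 were tested. *CYC1*, the cytochrome c1 subunit of complex III, had a value of -0.08 (adjusted p = 0.657) and fell by 0.19 (adjusted p = 0.021) without CRE replicate 3. *CYCS*, *NDUFAB1*, *ATP5IF1*, *DMAC2L* and *UQCRHL* did not pass in either fit. The readthrough gene *NDUFC2-KCTD14* rose (adjusted p = 0.00808), from 6 counts over the CRE libraries to 41 over the CRE+VAF347 libraries, a ratio of 7.47 with an exact 95% counting interval of 3.15 to 21.5. DESeq2 called 0 of these subunits and related genes that the name rule leaves out. The test of limma on log2(TPM + 1), and edgeR with low counts kept, each called 1 of them. *NDUFC2-KCTD14* overlaps the complex I member *NDUFC2* on the same strand, which had a value of 0.20 (adjusted p = 0.446).

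Promoters of the nuclear members were searched for 5 motifs, as a description with no test. RefSeq promoters (GRCh38.p14, 250 bases before to 50 after the start) were found for 66 of the 81 nuclear genes and were searched on both strands. The core of ETS factors such as GABP, CCGGAAG, was in 31.8% of member genes and 12.2% of 27305 genes. The palindrome of NRF1 was in 6.06% and 1.52%, and the YY1 motif in 6.06% and 1.04%. The AhR core GCGTG was in 56.1% of member genes and 40.6% of all genes, and the E-box of MYC, CACGTG, in 10.6% and 8.77%. The 27305 genes were not matched to the members in promoter GC content or in expression. An example is *SDHD*, shown because its upstream region held an NRF1 palindrome and an ETS core on the opposite strand within 80 bases (chr11:112086743-112086822, plus strand), with both in capitals.
SDHD: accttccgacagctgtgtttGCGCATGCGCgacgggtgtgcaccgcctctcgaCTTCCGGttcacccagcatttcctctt
A match is a description of letters and not of binding.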

How the data were processed

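RNA was poly(A)-selected and sequenced as paired 150 bp reads. The authors estimated expression with Salmon, and the submitters' processing notes name hg38. The authors deposited expected counts per gene, which Salmon estimates and which are not scaled to depth. They also deposited TPM, which are scaled to transcript length and depth. A deposited table of fold changes and p-values was not used. Counts were rounded, since 39.3% of nonzero values had a decimal part. The table of 61228 genes was filtered with filterByExpr and scaled by TMM in edgeR 4.0.16 (R 4.3.3). Its quasi-likelihood test was adjusted by Benjamini-Hochberg over all genes tested, with a threshold of 0.05. The standard error was the log2 fold change divided by the square root of F. CPM used TMM-scaled library sizes. Alternatives were DESeq2 1.42.0, limma 3.58.1 on TPM (pseudocounts 1 and 0.1, mean TPM minimum 1), other scaling and filters, length and GC offsets, pseudogene counts, a replicate block and leaving out each library. A transcript length trend offset, and length offsets without CRE replicate 3, were chosen after seeing the data. Transcript lengths, GC and overlaps are from GENCODE v44, in which 61228 of 61228 names were found. Scripts were tested on simulated data.

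Members and gene lists were chosen with earlier results of these data known. Named genes are all mtDNA members, members past the threshold, isoform sets and complex II. In each complex the highest and lowest fold change and the highest TPM are named too. List genes past the threshold in either fit are also named, with the subunits and related genes that the name rule leaves out. *NDUFB6*, *NDUFV3* and *NDUFA13* were named after their values were seen. A gene that meets the rule is not reported here. With 3 libraries a group, an exact permutation test cannot give a p under 0.1. Tests of single genes therefore come from the model of the whole table. Limits from counts of 0 cover counting error only.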

Additional observations from a re-analysis of the deposited data

How the results depend on the processing

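Of 21 alternative settings, 15 called 0 members as the 6-library fit did, and no setting called a member that was lower. One member, *NDUFA4*, was called by DESeq2's Wald test (4.5% of all genes), without CRE replicate 1 (3.98%) and without CRE replicate 3 (8.26%), and leaving out 1 library at a time gave 0 to 1 calls, with or without the fold threshold of 0.5. Without CRE replicate 1 the call also passed that threshold (log2 fold change 0.61). With the replicate block the count was 1, again *NDUFA4* (0.48, adjusted p = 0.0323; 4.72% of all genes), and it was 0 with the block and a GC offset together. The replicate numbers are not taken to pair the libraries, since same-numbered libraries correlated by only 0.06, 0.04 and 0.01. These are correlations of deviations from the group mean and not of whole profiles. Each CRE library nevertheless correlated best with its own number. Keeping genes with low counts gave 21 calls (23.1% of members, against 5.56% of all genes), all higher and 5 of them mtDNA genes, and the cause was not tested. The transcript length trend offset gave 2, *NDUFA4* and *COX6C* (9.02% of all genes). The median of the mtDNA members was 0.15 in the 3 fits on TPM, 0.18 with length offsets and -0.014 with the length trend offset, against 0.08, and it ran from 0.03 to 0.12 when 1 library was left out. The nuclear median ran from -0.01 to 0.24 in those fits. The difference in the mtDNA share was 0.07 percentage points of counts (0.01 to 0.11 without 1 library) and 0.48 of TPM. No named member reversed past the threshold. Up to 10 of 37 named members changed sign without passing it, in the fit without CRE replicate 3.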
